A study of Arabidopsis thaliana with 6 samples.

Results

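The chloroplast NDH complex is a large protein assembly of the thylakoid membrane, related to respiratory complex I, that passes electrons from ferredoxin to plastoquinone. It takes part in cyclic electron flow around photosystem I and in the respiration of plastids, and it is made of subunits encoded in the plastid and in the nucleus. Members of the set described here are the plastid genes ndhA and ndhC to ndhK, taken by symbol and plastid chromosome from the gene annotation of the array, with ndhB left out because it lies in the inverted repeat and has 2 copies. These are 10 genes of the 13286 named genes on the array, each with 1 probe set, and of the 69 plastid-encoded genes with a probe set of their own. Their products fall into a membrane arm, which includes the products of ndhA, ndhC, ndhD, ndhE, ndhF and ndhG, and a peripheral arm on the stroma side, which includes those of ndhH, ndhI, ndhJ and ndhK.

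Cotyledons of Arabidopsis thaliana in the Col-0 background were sampled at 4 days of age, and their RNA was measured on 1-colour Affymetrix arrays. The groups were the double mutant sicy-192 gun1-101, the mutant sicy-192 and the wild type (WT), with 2 arrays each that the labels call biological replicates. All had been raised with 100 mM sucrose in the medium and 16 h of light a day. The sicy-192 allele is known as a gain-of-function form of a plastid invertase that makes cotyledons turn yellow on sucrose, GUN1 is a plastid protein of signalling to the nucleus, and each line stands for 1 allele of its gene. No group carries gun1-101 alone, so the sicy-192 change is a background shared by both groups in the comparison that bears on GUN1, and the signals of GUN1 and of the invertase gene are not analysed here.

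Nothing in the labels says whether the plants of the 2 replicates were raised apart, so p-values speak only for the spread among these arrays, which may be technical. Values are probe-set signals with every array scaled to the same trimmed mean of 500, so a change is relative to the bulk of the probe sets, and fewer plastids or fewer copies of a transcript in each cannot be told apart. The primer of the reverse transcription is not given in the sources used here. How far the plastid signals depend on that primer was not tested. Of the cotyledon markers, 4 of 6 had a probe set (RCA, PRK, LHCB4.1 and LHCB4.2). The sum of their signals was 51963 to 67543 in the double mutant, 29192 to 38995 in sicy-192 and 86319 to 116024 in WT. All 4 are nuclear genes of photosynthesis, so less mesophyll and lower expression of such genes cannot be told apart. The root marker EXPA7 reached 28.0 at most and the meristem marker CLV3 reached 12.8, both below the signal of 50.3 that marks the dimness limit of the tests, and no seed marker had a named probe set. The array's control for 25S ribosomal RNA gave 7778 and 8361 in the double mutant, 1378 and 1173 in sicy-192, and 452 and 1763 in WT. The double mutant thus stood apart in this cytosolic ribosomal RNA, and the part that this plays in the plastid signals was not tested. The ratio of the 3' to the 5' probe set of GAPDH, a sign of RNA length, was 1.11 to 1.31 in the double mutant, 1.19 to 1.34 in sicy-192 and 1.20 to 1.42 in WT, so the groups overlapped. That of actin was larger, at 4.47 to 6.73 in the double mutant, 4.00 to 6.14 in sicy-192 and 4.86 to 7.18 in WT, again with overlap. It was 6.14 to 7.18 on the replicate 1 arrays and 4.00 to 4.86 on the replicate 2 arrays. The spiked control bioB gave 313 to 391 on the replicate 1 arrays and 51.6 to 68.8 on the replicate 2 arrays of the 3 genotypes, so changes of the ndh genes are also given within each replicate number.

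The signals of most ndh genes were lowest in the double mutant, intermediate in sicy-192 and highest in WT. ndhJ, which encodes a subunit of the peripheral arm, had signals of 88.2 and 132 in the double mutant, 751 and 644 in sicy-192 and 2819 and 1856 in WT. No array of one genotype overlapped with an array of another for this gene. ndhK, whose product in the related respiratory complex carries an iron-sulfur cluster, had 83.7 and 70.5 in the double mutant, 549 and 292 in sicy-192 and 1256 and 933 in WT. Its 3 genotypes were also apart for this gene, and the sicy-192 arrays were the least alike within a genotype.

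ndhI, for another iron-sulfur subunit of the peripheral arm, had 5554 and 7858 in the double mutant, 18175 and 14722 in sicy-192 and 28069 and 23912 in WT. ndhH, the fourth gene of that arm, had 18.7 and 27.8 in the double mutant, 126 and 75.4 in sicy-192 and 120 and 196 in WT. The sicy-192 and WT arrays of ndhH overlapped, whereas both double mutant arrays were below the rest and below the dimness limit.

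In the membrane arm, ndhA, whose transcript contains an intron, had 821 and 2008 in the double mutant, 4520 and 5591 in sicy-192 and 8838 and 9754 in WT. ndhD, one of the proton-pumping subunits related to antiporters, had 190 and 169 in the double mutant, 557 and 721 in sicy-192 and 1053 and 1194 in WT. ndhC had 2151 and 3678 in the double mutant, 6524 and 6132 in sicy-192 and 9062 and 9641 in WT. For these 3 genes the genotypes did not overlap, and the double mutant arrays of ndhA and ndhC differed more from each other than those of the other genotypes did.

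The small membrane subunit gene ndhE had 26.3 and 39.3 in the double mutant, 151 and 174 in sicy-192 and 293 and 434 in WT. ndhG had 44.5 and 35.4 in the double mutant, 176 and 129 in sicy-192 and 319 and 299 in WT. Both genes were below the dimness limit in the double mutant alone. ndhF, which encodes a further antiporter-like subunit, was dim everywhere, with 14.7 and 38.4 in the double mutant, 21.7 and 34.3 in sicy-192 and 5.05 and 28.5 in WT. Its genotypes overlapped, and it was the 1 member that did not reach the mean level needed for testing.

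**Figure D1:**
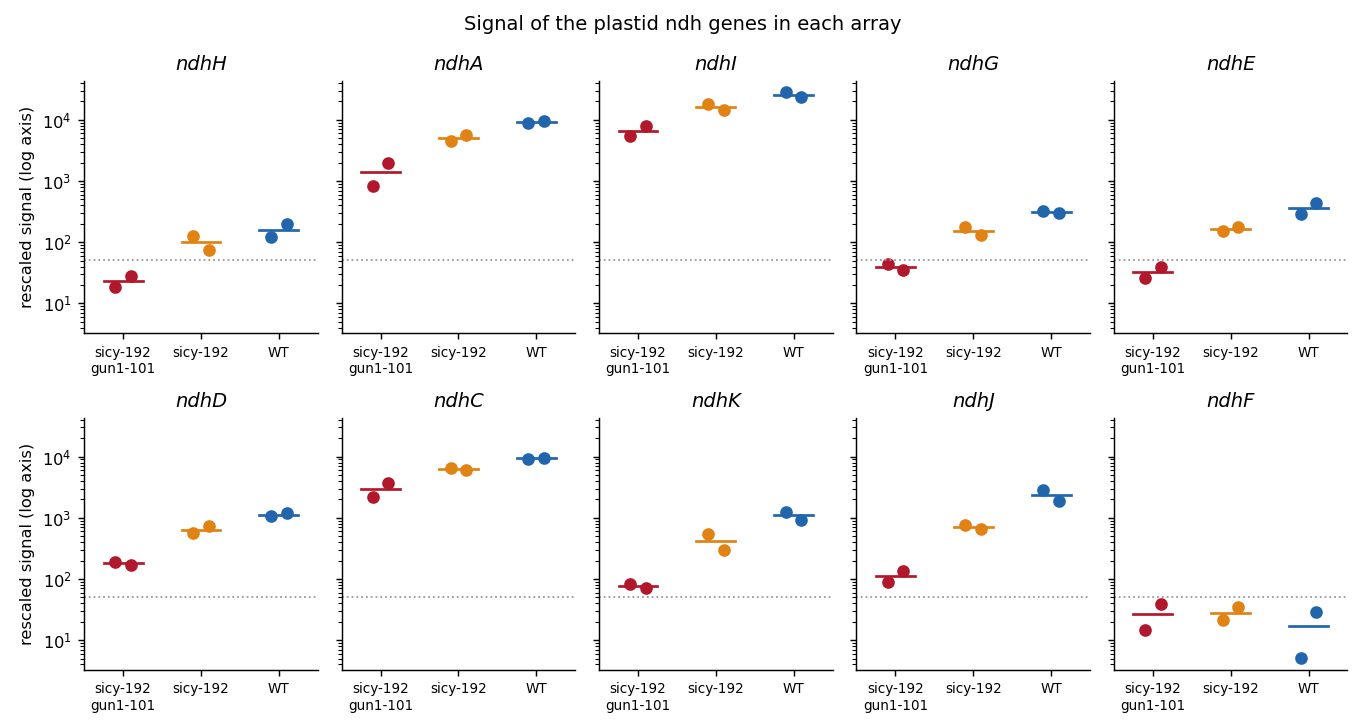
Rescaled signal (log axis) of each plastid ndh gene in the 2 arrays of the double mutant, sicy-192 and WT. Points are arrays, bars their means, and the dotted line is the dimness limit of 50.3. All genes but ndhF are lowest in the double mutant, and ndhF stays under the limit in every array.

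The first comparison asks what sicy-192 changes. Of the 10 members 9 were tested, and 6 of these were lower in sicy-192 than in WT at an adjusted p under 0.05 in limma, against 9.21% of all 14785 tested probe sets. None was higher, against 13.8% of all tested probe sets. The log2 change was -1.70 ± 0.23 for ndhJ (limma SE, with an adjusted p of 0.00107) and -1.40 ± 0.28 for ndhK (adjusted p of 0.0068). ndhE fell by 1.06, ndhG by 0.96, ndhD by 0.81 and ndhI by 0.66 on the log2 scale. The median of the 9 was -0.88, against 0.16 for all tested probe sets.

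Not passing were ndhA (-0.88, adjusted p = 0.085), ndhC (-0.56, adjusted p = 0.0993) and ndhH (-0.57, adjusted p = 0.229). With the replicate number, which bioB also separates, as a block, ndhA (adjusted p = 0.00574) and ndhC (0.0218) passed in limma, which made 8 of 9 lower. The share of all tested probe sets lower in that fit was not counted, so the larger count has no background beside it. Of the tested members 8 had both sicy-192 arrays below both WT arrays, which held for 21.1% of all tested probe sets, the exception being ndhH. Of the 9, only ndhJ was lower by 2-fold or more whichever arrays were paired, which held for 3.27% of all tested probe sets. In a fit with no dimness filter, limma called 5 of all 10 members lower (5.14% of all probe sets), and ndhF had a change of 0.51 (adjusted p = 0.536). Between the replicate 1 arrays alone ndhH had a change of 0.06 and the other 8 tested members changes of -0.47 to -1.89, and between the replicate 2 arrays alone all 9 lay between -0.65 and -1.62. The calls of ndhJ and ndhK held without any 1 of the 6 arrays. That of ndhI was lost without each of the 4 arrays compared (adjusted p up to 0.209) and with quantile normalization (log2 change -0.14, adjusted p = 0.613), no dimness filter (0.112) or no variance trend (0.0688). The calls of ndhD and ndhE were lost without WT replicate 2 (adjusted p = 0.05003 and 0.1003) and without sicy-192 replicate 1 (0.0702 and 0.0782). That of ndhG was lost without WT replicate 1 (0.0724) and without sicy-192 replicate 2 (0.1004). The count was then 3 without WT replicate 2 and 3 without sicy-192 replicate 1.

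The second comparison asks how the same genes stand once GUN1 is mutated too. All tested members fell: 9 of 9 were lower in the double mutant than in sicy-192 in limma, against 11.2% of all tested probe sets, with a median of -1.73 against -0.05 for all tested probe sets. The double mutant arrays of all 9 lay below the sicy-192 arrays, as in 34.8% of all tested probe sets. For ndhJ the log2 change was -2.52 ± 0.23 (limma SE, with an adjusted p of 0.000255), for ndhK -2.17, for ndhA -1.95 and for ndhE -1.88. ndhD changed by -1.73 ± 0.17 (adjusted p = 0.000372 in limma), and the smallest changes were those of ndhI (-1.31) and ndhC (-1.16). In all pairings of arrays 7 of the 9 were at least 2-fold lower, which held for 2.26% of all tested probe sets.

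Without the dimness filter, limma called 9 of all 10 members lower (5.43% of all probe sets), and ndhF had a change of -0.09 (adjusted p = 0.945). ndhE, ndhG and ndhH were near the added value of 16 in the double mutant, so the size of their changes depends on it. With 1 added in place of 16 these changes were -2.30, -1.90 and -2.05, and with 16 they were -1.88, -1.58 and -1.55. Leaving out sicy-192 replicate 1 ended the call of ndhH (adjusted p = 0.0719 in limma), as did leaving out double mutant replicate 1 (0.054). Between the replicate 1 arrays alone the 9 members changed by -1.48 to -2.88, and between the replicate 2 arrays alone by -0.73 to -2.15.

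Between the double mutant and WT all 9 tested members were lower in limma (12.8% of all tested probe sets were), with a median of -2.54 against 0.07 for all tested probe sets. This comparison shares its arrays with the other 2 and is not separate support for them. None was higher (17.3% of all tested probe sets were), the arrays of all 9 did not overlap (28.9%), and all 9 were lower by 2-fold or more whichever arrays were paired (2.72%). ndhJ stood 18.5-fold lower (-4.21 ± 0.23 on the log2 scale, adjusted p = 9.86e-06 in limma) and ndhK 11.8-fold lower. The least changed were ndhC, 3.31-fold lower, and ndhI, 3.91-fold lower. Changes were -1.97 to -4.77 between the replicate 1 arrays alone and -1.39 to -3.66 between the replicate 2 arrays alone. In the fit with no filter, limma called 9 of all 10 members lower (6.75% of all probe sets).

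**Figure D2:**
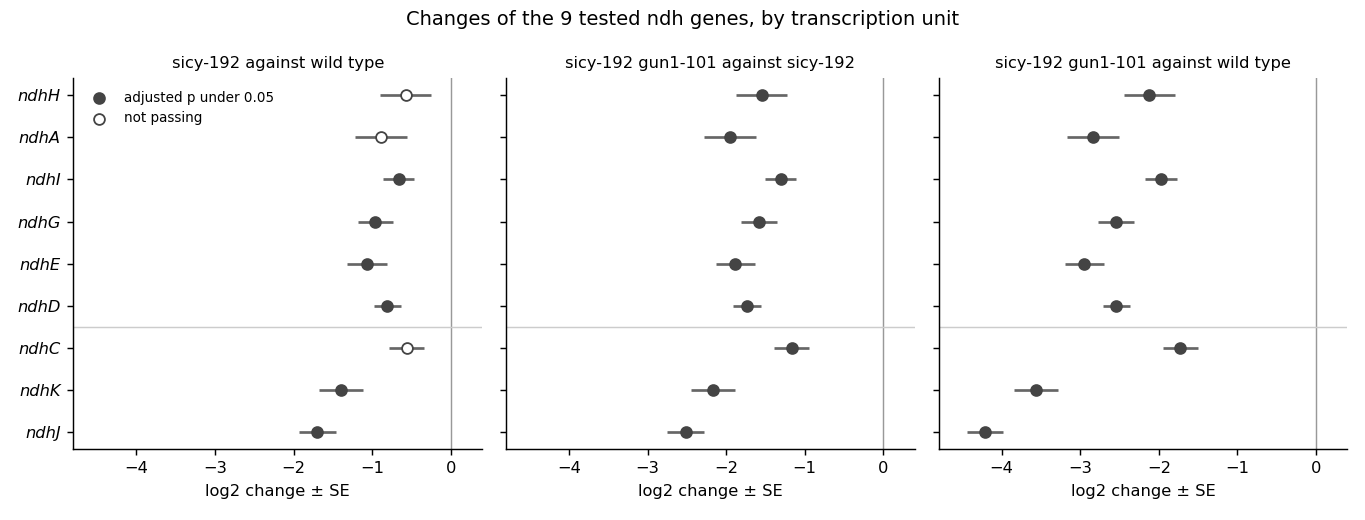
Log2 change with the standard error of the limma fit for the 9 tested ndh genes in each comparison. Filled points pass an adjusted p of 0.05. The upper 6 genes belong to the ndhH to ndhD unit and the lower 3 to the ndhC-ndhK-ndhJ unit, listed in the order of transcription. All points lie left of 0, and ndhJ and ndhK lie farthest left.

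Plastid genes are copied as units of several genes whose transcripts are then cut, spliced and edited. In the RefSeq gene table ndhJ, ndhK and ndhC lie next to each other, as do ndhD, psaC, ndhE, ndhG, ndhI, ndhA and ndhH in that order, and ndhF lies apart beside rpl32. Transcription is known to run from ndhC to ndhJ in the first unit and from ndhH to ndhD in the second. The log2 changes in sicy-192 against WT were -0.56, -1.40 and -1.70 for ndhC, ndhK and ndhJ, in the order of transcription. In the double mutant against sicy-192 they were -1.16, -2.17 and -2.52.

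Set against ndhC on the same array, ndhJ had a log2 difference from WT of -2.35 and -2.62 in the double mutant arrays, -1.07 and -1.20 in the sicy-192 arrays and 0.34 and -0.34 in the WT arrays. The 3 genotypes did not overlap in this difference. For ndhK against ndhC the values were -1.35 and -2.33 in the double mutant, -0.44 and -1.23 in sicy-192 and 0.26 and -0.26 in WT, again without overlap between genotypes. With 2 arrays a group a two-sided exact permutation test cannot go below p = 0.333, which was the p of both differences in each comparison (adjusted p = 0.889 over 8 gene pairs in 3 comparisons). The unequal change within the unit therefore cannot pass a test of this kind here. Differences between the probe sets in how signal follows RNA amount were not tested.

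**Figure D3:**
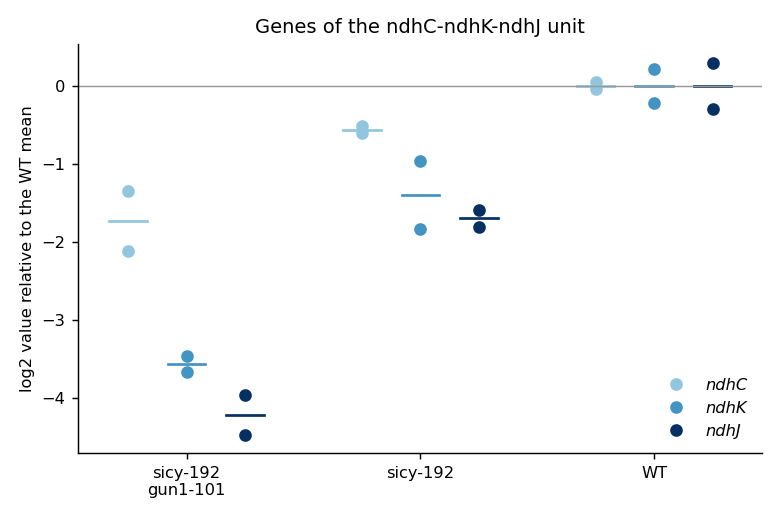
Log2 value relative to the WT mean for ndhC, ndhK and ndhJ in each array of the double mutant, sicy-192 and WT. Points are arrays and bars are means. ndhC lies above ndhK and ndhJ in all sicy-192 and double mutant arrays.

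In the unit from ndhH to ndhD, changes in sicy-192 against WT lay between -0.57 (ndhH) and -1.06 (ndhE), and those in the double mutant against sicy-192 between -1.31 (ndhI) and -1.95 (ndhA). Of the 5 genes set against ndhH, only ndhE had no overlap between sicy-192 and WT arrays in the difference (-0.90 and -0.08 in sicy-192, 0.05 and -0.05 in WT, exact permutation p = 0.333). Any 2 against 2 arrays without overlap give this p, and the nearest values of the groups are close, so ndhE is not set apart here. The photosystem I gene psaC, which lies in the same unit, was too dim for the tests, with signals of 16.3 and 5.01 in the double mutant, 57.7 and 71.6 in sicy-192 and 88.6 and 84.4 in WT. It was thus lowest in the double mutant, as were its neighbours. The flanking gene ccsA, for a protein of cytochrome c assembly, fell by 1.47 in sicy-192 against WT and by 2.05 in the double mutant against sicy-192 on the log2 scale (adjusted p = 0.00146 and 0.000435 in limma). On the other flank the ribosomal protein gene rps15 did not pass in sicy-192 against WT (0.39, adjusted p = 0.378) and fell by 2.25 in the double mutant against sicy-192 (adjusted p = 0.00135). The probe set listed for both copies of ndhB had 85.9 and 50.9 in the double mutant, 58.1 and 55.4 in sicy-192 and 41.5 and 71.8 in WT. These values are close to the dimness limit and overlap, and no comparison passed (adjusted p of 0.642 to 0.949 in limma).

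Other plastid genes were lower too, in part in sicy-192 and for the most part in the double mutant. Of the 57 other plastid-encoded probe sets tested, 25 were lower, 3 higher and 29 not passing in sicy-192 against WT in limma (median -0.76). Of all tested probe sets 9.21% were lower and 13.8% higher there. In the double mutant against sicy-192, 47 of the 57 were lower and 0 higher (median -1.66), against 11.2% and 9.54% of all tested probe sets. Against WT, 52 of the 57 were lower in the double mutant (12.8% of all tested probe sets were). With each array centred on the median of these other plastid probe sets, no ndh gene passed in sicy-192 against WT (limma, 0 also at an unadjusted p under 0.05). The medians of the ndh genes were then 0.33 in sicy-192 against WT and -0.17 in the double mutant against sicy-192. The centre follows the median level of these probe sets on each array, not their median change. Over the 57 tested, that level was 11.1 and 10.3 in the sicy-192 arrays and 11.7 and 11.7 in the WT arrays. The gap between the sicy-192 arrays enters every centred value and its spread. Without the centring the ndh median in sicy-192 against WT was -0.88, against -0.76, so the sign of 0.33 depends on the centre. On the centred scale ndhJ was still lower in the double mutant than in sicy-192 (log2 change -0.95, adjusted p = 0.00336 in limma), and it was the 1 member that was. On the same scale against WT, ndhJ (-1.44, adjusted p = 6.55e-06 in limma) and ndhK (-0.79, 0.0152) were lower in the double mutant. There ndhC (1.05, adjusted p = 0.00164 in limma) and ndhI (0.81, 0.0215) were higher. The share of all probe sets called on this scale was not counted. Uncentred, ndhJ, ndhK, ndhC and ndhI changed by -4.21, -3.56, -1.73 and -1.97, against a median of -2.40 for the other plastid probe sets. ndhI and ndhC were also the brightest members (mean log2 values of 13.8 and 12.4), and whether bright signals understate changes was not tested.

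**Figure D4:**
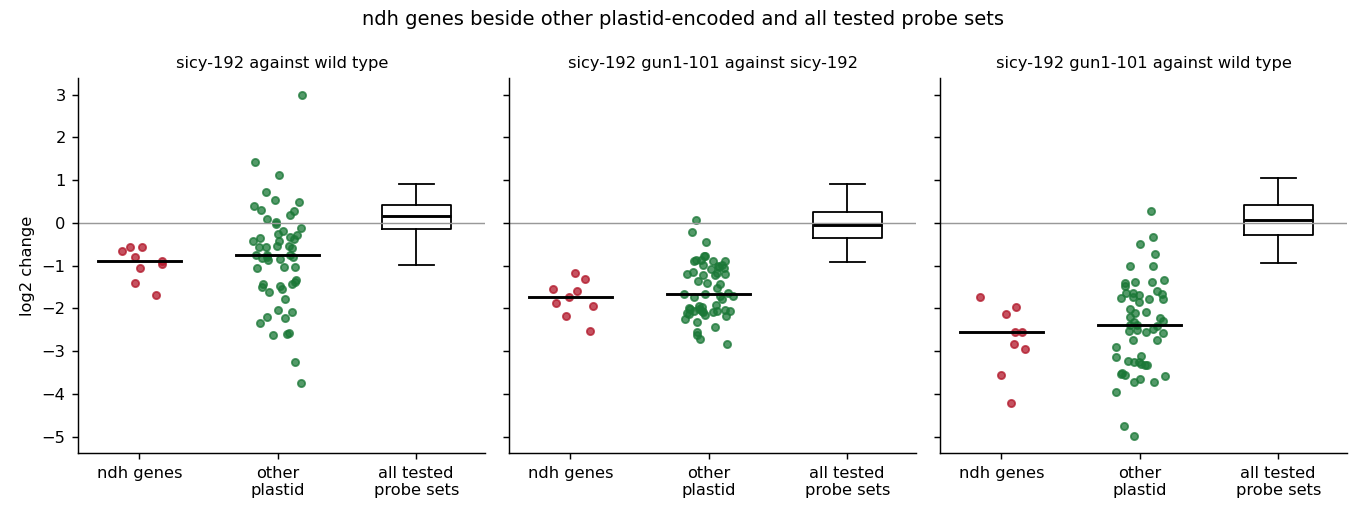
Log2 changes of the 9 tested ndh genes and of the 57 other plastid-encoded probe sets (points, with bars at the medians), beside all 14785 tested probe sets (box with quartiles and median, whiskers from the 5th to the 95th percentile). The ndh genes lie within the spread of the other plastid genes in all 3 comparisons, with medians of -0.88 and -0.76 in sicy-192 against WT.

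Over the 6 arrays the log2 values of the tested members correlated with each other at Pearson's r between 0.90 and 0.996 (median 0.96 over 36 pairs). With their mean profile, the plastid genes most alike were rps4 (r = 0.991), psbF (0.991), psbZ (0.990), atpF (0.989) and psaI (0.989). The nuclear genes most alike were AT4G34220 (r = 0.997), AT1G30690, AT4G18970, AT2G19880 and AT1G09750. These correlations describe 6 arrays of 3 genotypes that share their scaling, and 110 of 8002 nuclear genes and 20 of 57 other plastid genes exceeded an r of 0.95.

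Nuclear genes for subunits of the same complex took another course in the double mutant. Of 20 such genes listed, 4 had a named probe set. All 4 were lower in sicy-192 than in WT in limma (9.21% of all tested probe sets were), with a median of -1.80. NDHS (AT4G23890), whose product binds ferredoxin, had signals of 2549 and 2335 in the double mutant, 944 and 718 in sicy-192 and 4794 and 3438 in WT. In sicy-192 it was lower than in WT, at -2.28 ± 0.19 on the log2 scale (limma SE, with an adjusted p of 9.12e-05). In the double mutant it was higher than in sicy-192, by 1.55 ± 0.19 (adjusted p = 0.00091 in limma).

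NDHL (AT1G70760), a transmembrane subunit, had 1341 and 1584 in the double mutant, 788 and 758 in sicy-192 and 3522 and 2792 in WT. NDHN (AT5G58260), a peripheral subunit of chloroplast and cyanobacterial complexes, had 1795 and 2201 in the double mutant, 953 and 912 in sicy-192 and 3504 and 2339 in WT. Both therefore lay between sicy-192 and WT in the double mutant, with log2 changes of 0.90 and 1.08 against sicy-192 (adjusted p = 0.00452 and 0.00541 in limma). NDHV (AT2G04039) fell in sicy-192 against WT (-1.49) and did not pass in the double mutant against sicy-192 (0.23, adjusted p = 0.314). Counted over the list, 3 of 4 nuclear subunit genes rose and 0 fell in the double mutant against sicy-192. Of all tested probe sets 9.54% rose and 11.2% fell, and of the tested plastid ndh genes 9 of 9 fell. The cotyledon markers moved like the nuclear subunit genes, with 4 of 4 lower in sicy-192 than in WT (9.21% of all tested probe sets). In the double mutant 3 of 4 were higher than in sicy-192 (9.54%). These markers are nuclear genes of photosynthesis too, and their part in these changes was not tested. Against WT, NDHL (-1.10), NDHV (-1.26) and NDHS (-0.73) were lower in the double mutant and NDHN did not pass (-0.52, adjusted p = 0.0739). The change of NDHN was -0.23 without WT replicate 1, -0.38 without double mutant replicate 1 and -0.81 without WT replicate 2 (adjusted p = 0.404, 0.322 and 0.0138), and it passed with centring on each array's median (-0.61, 0.0416) and with the replicate block (0.0272). The call of NDHS was lost without WT replicate 1, double mutant replicate 1 or double mutant replicate 2 (adjusted p = 0.115, 0.0641 and 0.104).

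Of 8 genes for assembly of the complex, 3 had a named probe set. All 3 were lower in sicy-192 than in WT in limma (9.21% of all tested probe sets were). CRR42 changed by -0.98, PAM68L (AT5G52780) by -0.93 and CRR41 by -0.74, the last call being lost without WT replicate 2 (adjusted p = 0.138) or sicy-192 replicate 1 (0.183), with no dimness filter (0.067) and with no variance trend (0.0551). None of them passed in the double mutant against sicy-192, with changes of -0.25 to -0.09 (adjusted p of 0.313 to 0.757). All 3 were lower in the double mutant than in WT (12.8% of all tested probe sets were). There the call of CRR41 (-0.87) was lost without WT replicate 2 (log2 change -0.72) and without double mutant replicate 1 (-0.71).

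**Figure D5:**
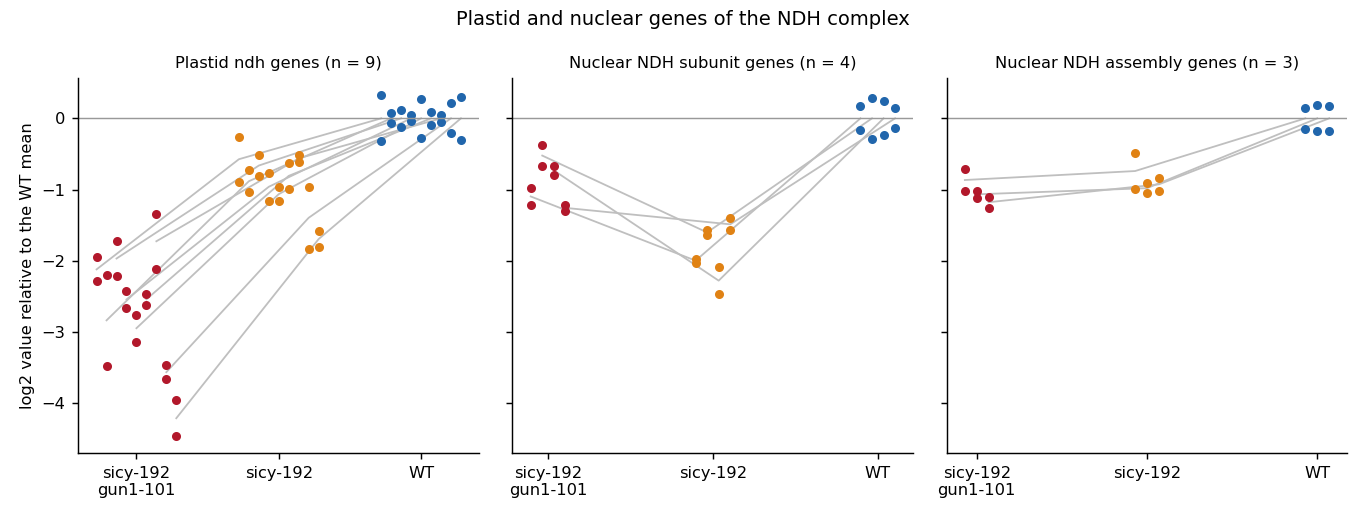
Log2 value relative to the WT mean in each array for the 9 tested plastid ndh genes, 4 nuclear subunit genes and 3 nuclear assembly genes. Points are arrays and grey lines join the genotype means of each gene. Medians in the double mutant arrays are -2.47 and -2.62 for plastid ndh genes, -0.94 and -0.89 for nuclear subunit genes and -1.02 and -1.12 for assembly genes, against -0.96 and -0.89, -1.77 and -1.83, and -0.91 and -1.02 in sicy-192.

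Of 11 nuclear genes for processing of ndh transcripts, mostly pentatricopeptide repeat proteins of RNA editing, 5 were tested. In no comparison did limma call any of them. At an unadjusted p under 0.05, 1 of 5 was higher in sicy-192 than in WT (24% of all tested probe sets), 2 of 5 in the double mutant than in sicy-192 (15.1%) and 2 of 5 in the double mutant than in WT (24.3%), and 0 were lower. CRR21, an editing factor of ndhD transcripts, had signals of 694 and 898 in the double mutant, 723 and 863 in sicy-192 and 606 and 818 in WT. OTP84, an editing factor with several plastid sites, had 282 and 355 in the double mutant, 328 and 404 in sicy-192 and 309 and 342 in WT. In both genes the arrays of the 3 genotypes overlapped. The other 3 genes, chosen here after their values were seen, held the unadjusted calls. CRR28 (log2 change 0.74, adjusted p = 0.0505) and CRR22 (0.52, adjusted p = 0.0698) had both double mutant arrays above both WT arrays, and OTP85 (0.69, adjusted p = 0.0775) and CRR28 (0.56, adjusted p = 0.143) had them above both sicy-192 arrays, none passing in limma. CRR22 was the gene with an unadjusted call in sicy-192 against WT (0.45, adjusted p = 0.128). None of the 6 genes for sigma factors, which direct the bacterial-type RNA polymerase of plastids to promoters, had a named probe set.

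Of 5 nuclear genes for other routes of electrons into plastoquinone, 2 were tested. PGRL1B, of the antimycin-sensitive cyclic route, fell in sicy-192 against WT (log2 change -0.91, adjusted p = 0.0289 in limma), a call lost without WT replicate 1 (0.147) or sicy-192 replicate 2 (0.139), with no dimness filter (0.0675) and with no variance trend (0.0544). PGRL1B had a change of 0.67 in the double mutant against sicy-192 (adjusted p = 0.0868 in limma). This change passed with centring on each array's median (0.0464), only the 2 groups compared (0.0285) and the replicate block (0.00322). It did not pass with no dimness filter (0.164). NDC1, a single-protein NAD(P)H dehydrogenase of plastoglobules, rose in the double mutant against sicy-192 (0.62, adjusted p = 0.0274 in limma), a call that ended on leaving out sicy-192 replicate 1 (0.147) or double mutant replicate 2 (0.201) and with no variance trend (0.0523), and did not pass in sicy-192 against WT (-0.37, adjusted p = 0.14).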

How the data were processed

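Cotyledon RNA of 3 genotypes, 2 samples each, was biotin-labelled by in vitro transcription and hybridised to Affymetrix arrays, per the labels' protocols. The authors deposited 1 signal intensity per probe set, on a linear scale. The submitters' processing notes name GCOS, and the signal algorithm, build and detection calls are not given in the sources used here. Each column already had a 2% trimmed mean of about 500. Genes were named through the platform table and RefSeq (TAIR10.1): of 22746 probe sets, 13513 had a single gene, 503 several and 8730 none, and 13436 matched RefSeq.

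Each array was brought to a trimmed mean of 500, and log2(signal + 16) was used, which understates changes of dim genes. The 14785 probe sets above the 35th percentile of mean log2 value went into limma 3.58.1, run in R 4.3.3. The fit used a variance trend and all 6 arrays, two-sided, with Benjamini-Hochberg adjustment over all tested and a threshold of 0.05. The procedure was run on simulated data for sicy-192 against WT, with noise drawn independently for each probe set and array. Log2 changes of 1 and 2 were recovered in 88% and 100% of cases, and 0.53% of calls were false. Noise shared by same-numbered arrays or by plastid genes was not simulated. Members are named in full, with psaC, ndhB and flanking genes as neighbours (ccsA and rps15 were chosen after their values were seen). From each list up to 4 called genes with the largest change, or else the 2 brightest, are named, and the 5 plastid and 5 nuclear genes most correlated with the members. The members and lists were chosen with earlier results of these data known. The number of arrays limits the precision, and no sequence was used.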

Additional observations from a re-analysis of the deposited data

How the results depend on the processing

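The members' counts and medians were recomputed with no filter, a 50th percentile filter, offsets of 1 and 64, the values as deposited, quantile normalization, centring on each array's median or on the other plastid probe sets, no variance trend, only the 2 groups compared, a threshold of 0.10, the replicate number as a block, and without each array. The faintest probe set in place of the brightest was not run, since each symbol has 1. Shares of all probe sets called lower were counted only for the main fit and the fit with no filter. Outside plastid centring, no member reversed. Leaving out 1 array gave 3 to 8 members lower in sicy-192 against WT (reported: 6), 8 to 9 in the double mutant against sicy-192, and 9 to 9 in the double mutant against WT. In sicy-192 against WT, ndhA and ndhC passed with only the 2 groups compared (adjusted p = 0.0063 and 0.0274), at 0.10 and without either double mutant array, giving 8.

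Same-numbered arrays share only a number in the labels, though their deviations correlated at r = 0.329 to 0.436 across probe sets, which are not independent. With the replicate block 8, 9 and 9 members were lower, ndhA (adjusted p = 0.00574) and ndhC (0.0218) being added in sicy-192 against WT. NDHN passed against WT (0.0272) and PGRL1B against sicy-192 (0.00322) in the double mutant.

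With centring on the other plastid probe sets, the members called lower were 0 in sicy-192 against WT. They were 1 in the double mutant against sicy-192 and 2 in the double mutant against WT. This scale takes out the change in the median level of those probe sets, which is not their median change. It moved ndhA from -0.88 to 0.33 in sicy-192 against WT, whereas the median change of those probe sets was -0.76. The signs on this scale thus depend on how the centre was chosen. The medians of the members turned to 0.33 in sicy-192 against WT and 0.23 in the double mutant against WT. Members that turned in sicy-192 against WT were ndhA (0.33), ndhC (0.65), ndhD (0.40), ndhE (0.14), ndhG (0.25), ndhH (0.63) and ndhI (0.55), none called. In the double mutant against sicy-192 they were ndhC (0.40), ndhH (0.019) and ndhI (0.26), none called. In the double mutant against WT they were ndhC (1.05), ndhD (0.23), ndhG (0.23), ndhH (0.65) and ndhI (0.81), of which ndhC and ndhI were called higher.

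Nuclear genes whose uncalled changes turned, in alternatives chosen after seeing the data, were OTP84 in sicy-192 against WT (-0.0116 with quantile normalization, -0.036 with centring on the median), CRR21 in the same comparison (-0.031 with centring on the median) and, in the double mutant against sicy-192 with that centring, CRR42 (0.016) and CRR21 (0.10). Without 1 array, CRR21 ranged from -0.049 to 0.37 in sicy-192 against WT, from -0.18 to 0.18 in the double mutant against sicy-192 and from -0.050 to 0.37 in the double mutant against WT. CRR41 ranged from -0.38 to 0.13 in the double mutant against sicy-192. In the double mutant against WT, OTP84 ranged from -0.20 to 0.12 and PGRL1B from -0.61 to 0.14. The cause of these shifts was not tested. Dim signals in the double mutant limit the sizes given for ndhE, ndhG and ndhH.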
